A study of Ovis aries and Mus musculus with 10 samples.

Results

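The comparison set mammary gland of ewes late in pregnancy, at gestation day 125, against gland at gestation days 14 and 64. A miRNA was taken as a member when its value at day 125 lay above both or below both of the earlier values after the arrays had been scaled to a common level, and 114 of the 567 mouse miRNAs on the array met this rule. Of these, 59 were higher and 55 lower at day 125. Another 61 miRNAs lay outside the earlier range only before scaling and were left out. Some, such as let-7c, moved inside the range when the overall signal of the array was taken out. Others, such as miR-721, were left out because day 125 and an earlier day were set to the same lowest level, the floor described below. The study measured total RNA from untreated mammary tissue of ewes and CD1 mice on 10 single-colour arrays, 5 per species, and each stage was measured on 1 array. Ewes were sampled in cycle (day 15), at gestation days 14, 64 and 125 and at lactation day 60, and the 5 sheep arrays lay on the same slide. Mice were sampled as virgins, on days 10 and 17 of gestation and on days 2 and 10 of lactation. The labels do not say whether an array held RNA of 1 animal or of several, and no stage was repeated, so no test could be made and no p-value is given. The errors printed are standard errors between spots of the same arrays and do not cover differences between ewes.

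miRNAs are short RNAs that are cut from hairpin precursors and lower the output of messenger RNAs that pair with their seed, the stretch near the 5′ end. Many are copied together from clusters in the genome, and members of a family share a seed. Late in pregnancy the mammary gland fills with milk-forming alveoli, and the epithelium takes up space that fat and connective tissue held before. Each array measures a mixture of all cells of the gland, so fewer cells of a type and less RNA per cell cannot be told apart.

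The array was designed for mouse miRNAs, and the match of its probes to sheep sequences was not examined. Signal was lower at day 125. Across the 94 miRNAs detected on every one of the 10 arrays, the 75th percentile was 939 intensity units at day 125, 1831 at day 14 and 1561 at day 64, and 156, 206 and 208 miRNAs were detected on these arrays. Each array was divided by that percentile, so a log2 level of 0 means a signal equal to it and 1 unit is a doubling. Levels below -5.11 were set to that value, the floor. Of the 226 miRNAs detected on at least 1 of the 3 gestation arrays, 83 lay at the floor on all 3 days and 143 were measured above it at least once. Over these 143, the median difference between day 125 and the mean of the earlier days was -0.06.

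**Figure D1:**
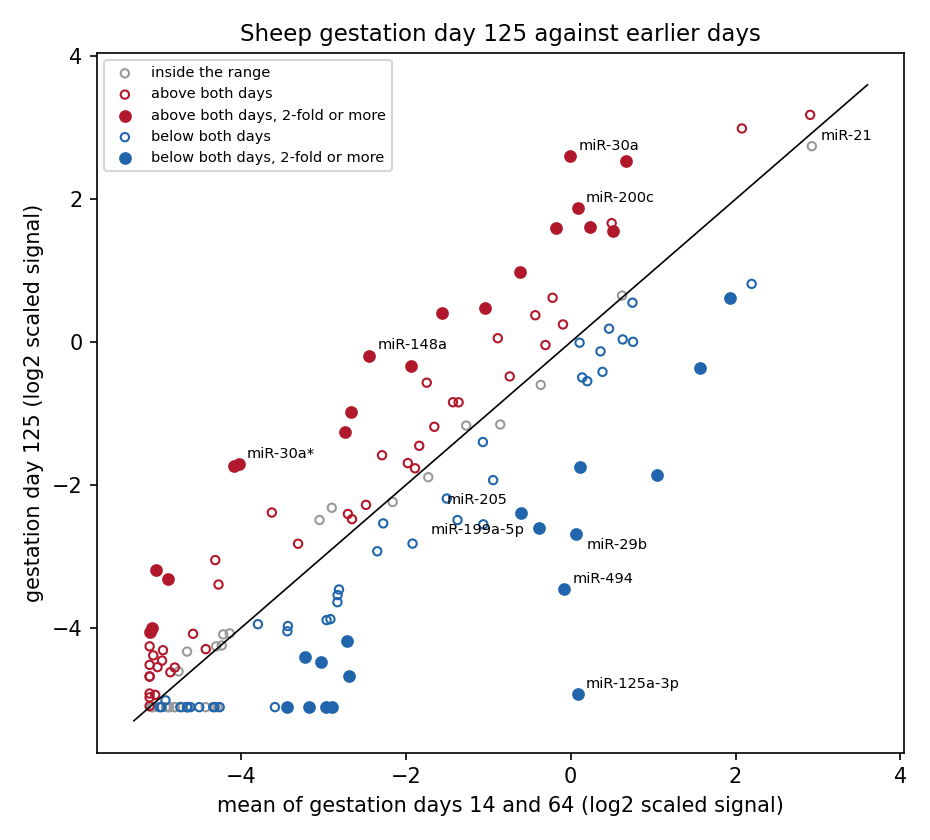
Log2 scaled signal at sheep gestation day 125 (vertical axis) against the mean of gestation days 14 and 64 (horizontal axis), 1 point per miRNA. Red points lie above both earlier days, blue points below both and grey points between them, filled points differ from the nearer day by 2-fold or more, and the line marks equal values. miR-30a stands farthest above the line and miR-125a-3p farthest below it.

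At day 125, both arms of the miR-30a hairpin, miR-148a, miR-378 and miR-720 lay farthest above their earlier levels, and all 5 members of the miR-200 family and members of the miR-17-92 cluster were also 2-fold or more above them. miR-125a-3p, miR-494, miR-29b, miR-199a-5p and miR-1224 lay farthest below, and miR-29a and miR-29c were also 2-fold or more below. These orders are by the distance to the nearer of the earlier days, called the gap from here on. By this gap, 19 miRNAs were higher by 2-fold or more, 13.3% of the 143, and 17 were lower by 2-fold or more, 11.9%. With any gap, 41.3% were higher and 38.5% lower. These shares describe 3 arrays, and no array shows how far apart another ewe of the same day would lie. The gap has an error between spots only where both of its values lie above the floor, and it was larger than 2 times that error for 46 of 51 higher and 37 of 40 lower miRNAs.

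The scaling moved day 125 by 0.96 against day 14 and 0.73 against day 64 on the log2 scale, both under the 2-fold limit, so a gap past that limit keeps its side without scaling by construction. Of the 40 higher members under the limit, miR-652 was the 1 that was also higher before scaling, and 18 of the 59 lay below both earlier days before scaling and above them after it. The balance of the 2 sides depended on the scaling. With the 75th percentile over all mouse miRNAs, 33 were higher and 8 lower by 2-fold or more, 80.5% of them higher against 52.8% here, and the median over all miRNAs moved to 0.32. Without scaling, 2 were higher and 64 lower (3.03% higher, median -0.66). With the authors' deposited value table, 56 were higher and 3 lower (94.9% higher, median 0.88). Quantile normalization left 16 higher and 17 lower. No miRNA of the 36 turned to the opposite side under the 7 scaling and background settings. Of the 19, 15 kept a gap above 0 under all 7, and 8 of the 17 kept one below 0. The other 4 higher and 9 lower miRNAs reached the floor or the earlier range under at least 1 setting. The 2-fold size was kept by fewer. Without scaling, miR-30a and miR-30a* were the 2 left on the higher side, and with the authors' value table miR-125a-3p, miR-494 and miR-29b were the 3 left on the lower side. With normexp background correction, gaps fell under the limit for miR-30a* (0.58), miR-429 (0.56), miR-20b (0.96), miR-19b (0.97) and miR-205 (-0.97), in addition to the miRNAs that reached the floor.

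**Figure D2:**
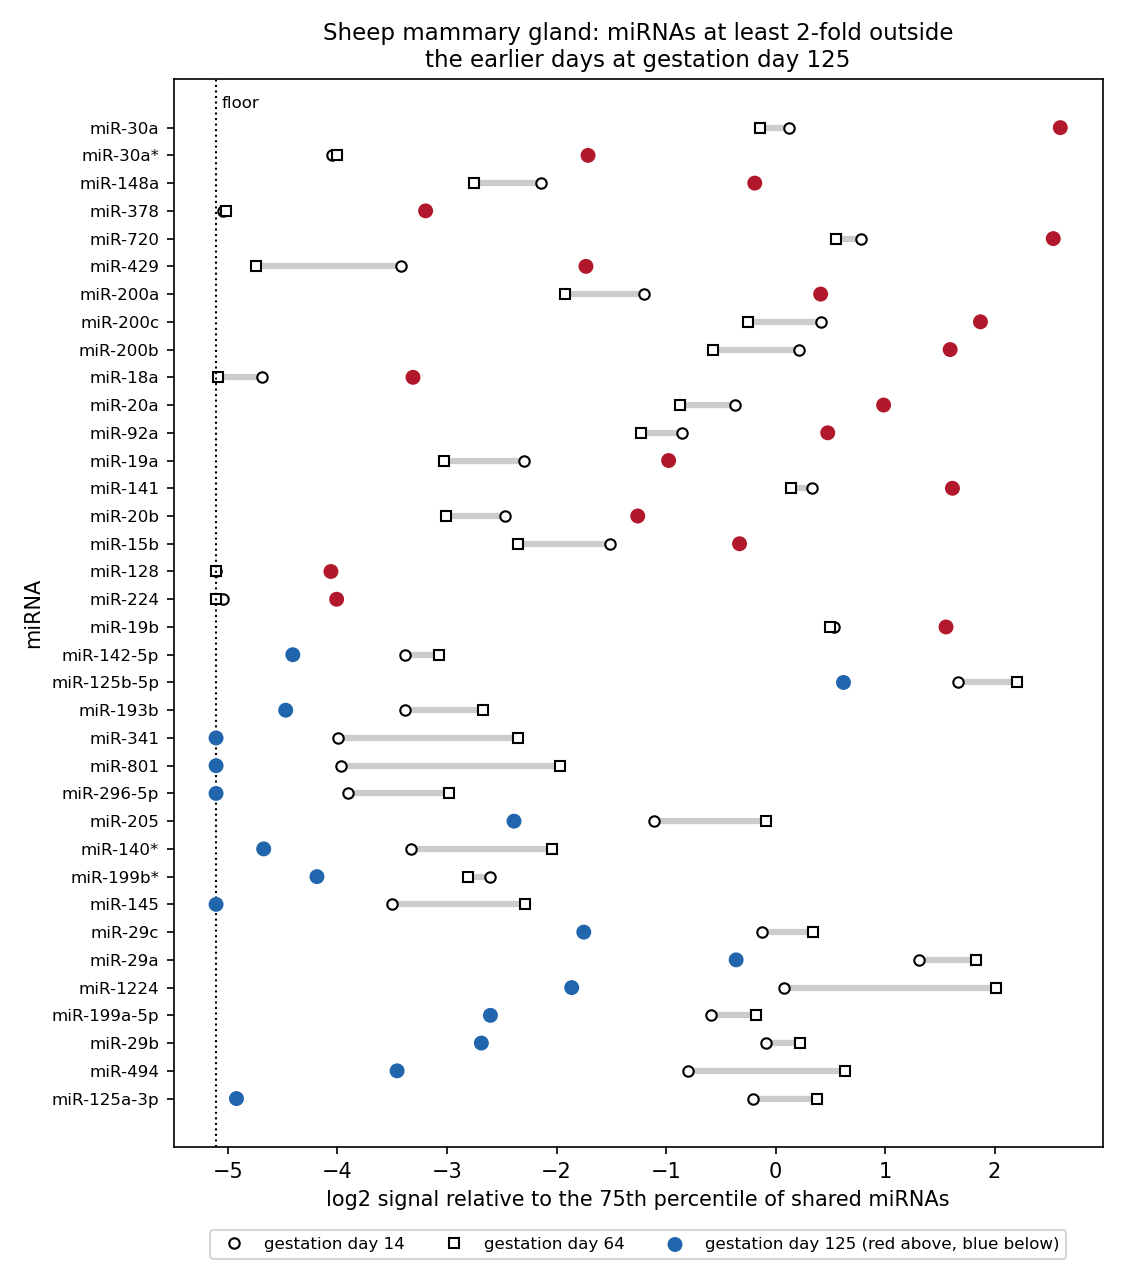
Log2 scaled signal of the 36 miRNAs whose value at sheep gestation day 125 lay 2-fold or more outside both earlier days, 1 row per miRNA. Open circles are day 14, open squares day 64 and filled points day 125, red where above and blue where below. Under this scaling the filled point lies farthest from the nearer open symbol for miR-125a-3p, at -4.71.

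miR-30a, of a family that restrains autophagy and mesenchymal genes, had log2 levels of 0.12 at day 14, -0.14 at day 64 and 2.60 at day 125. The earlier days lay close together and day 125 stood 5.57-fold above the nearer one, a gap of 2.48 ± 0.024 between spots. Its unscaled signal was 1992, 1418 and 5694 intensity units, so the difference was present before scaling, on the dimmest of the 3 arrays. The opposite arm of the hairpin, miR-30a*, had levels of -4.05, -4.00 and -1.71 and a gap of 2.29 ± 0.022, which was 0.58 with normexp. Their probes target mouse chromosome 1, between 23279118 and 23279175 (mm9). miR-30a was the 1 higher miRNA that stayed 2-fold or more above both earlier days under all 7 settings.

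The other members of the miR-30 family moved less. miR-30b was at -1.82, -1.86 and -1.45, miR-30c at -1.96, -2.00 and -1.69, and miR-30e at -1.87, -1.91 and -1.77. All 3 lay slightly above both earlier days after scaling, with gaps of 0.37, 0.26 and 0.10, and each had 1 of its 2 probes on this side. Before scaling they lay below both days, with gaps of -0.33, -0.43 and -0.59. miR-30d was the exception after scaling, with -1.82, -1.18 and -2.19, below both. The family's median difference of 0.28 turned to -0.57 without scaling, where the median over all miRNAs was -0.66.

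The miR-200 family holds epithelial cells in their epithelial state by acting on the repressors ZEB1 and ZEB2, and its 5 members come from 2 clusters. In the cluster on mouse chromosome 4 (155428025 to 155429810, mm9), miR-200a had log2 levels of -1.20, -1.92 and 0.41 at days 14, 64 and 125, and a gap of 1.61 ± 0.013. miR-200b was at 0.21, -0.57 and 1.59, a gap of 1.38 ± 0.0090, and miR-429 at -3.42, -4.74 and -1.73, a gap of 1.69 ± 0.018 (0.56 with normexp). In these 3, day 64 was the lowest day and day 125 the highest. In the cluster on mouse chromosome 6 (124667935 to 124668357, mm9), miR-200c was at 0.42, -0.25 and 1.87, a gap of 1.45 ± 0.018. Its neighbour miR-141 was at 0.33, 0.14 and 1.62, a gap of 1.29 ± 0.0089. All 5 of 5 were thus higher by 2-fold or more, beside 13.3% of the miRNAs measured. The family's median difference from the mean of the earlier days was 1.79, and it lay between 0.94 and 3.01 under the 7 scaling and background settings.

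Other miRNAs known from epithelium did not share this course. miR-205, which is linked to basal epithelium and mammary progenitors, was at -1.11, -0.09 and -2.39, so day 125 lay below both earlier days by -1.28 ± 0.014. miR-96 was at -3.44, at the floor and at -3.39, and miR-183 was at the floor on both earlier days and at -4.97 on day 125. miR-31 was at -5.01, -4.01 and at the floor. On none of the 3 days did miR-203 or miR-375 rise above the floor. Of the list of 7, 6 were detected and 4 measured above the floor, with 2 higher and 2 lower at day 125 and a median difference of -0.23.

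The miR-17-92 cluster and its paralogs are copied in dividing cells and favour proliferation. Their 9 measured members were all higher at day 125, beside 41.3% of the miRNAs measured, and 6 by 2-fold or more, beside 13.3%. The median difference was 1.48 (0.20 to 2.22 under the 7 settings), but not every member stayed higher without scaling, as given below. Within the cluster on mouse chromosome 14 (115443093 to 115443718, mm9), miR-20a was at -0.37, -0.87 and 0.99 and miR-92a at -0.86, -1.23 and 0.48, with gaps of 1.36 ± 0.021 and 1.33 ± 0.010. miR-19a was at -2.30, -3.03 and -0.98, a gap of 1.32 ± 0.011, and miR-19b at 0.53, 0.49 and 1.56, a gap of 1.03 ± 0.018. miR-18a, near the floor, was at -4.69, -5.09 and -3.31. All 5 measured members of this cluster thus lay above both earlier days.

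Of the paralogs, miR-20b was at -2.47, -3.01 and -1.26, a gap of 1.21 ± 0.014. The cluster on mouse chromosome 5 (138606560 to 138607031, mm9) differed less. There miR-25 was at -0.77, -1.0 and 0.05, miR-93 at -2.69, -2.72 and -2.41, and miR-106b at -0.22, 0.04 and 0.25. These 3 were higher than on both earlier days after scaling, with gaps of 0.82, 0.28 and 0.21, and none reached 2-fold. Without scaling, miR-93 and miR-106b lay below both earlier days, with gaps of -0.42 and -0.49, and miR-25 lay inside the range. The remaining 2 of the 11 detected members, miR-17 and miR-106a, lay at the floor on all 3 days although their cluster mates did not.

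The let-7 family, which marks differentiated cells and opposes growth genes such as HMGA2, had 7 of 9 members above both earlier days, 1 below and 1 between, and none by 2-fold. Over all miRNAs measured, 41.3% were above and 38.5% below. let-7f was at 0.80, 0.20 and 1.66, let-7d at -1.46, -2.03 and -0.57, and let-7a at 2.20, 1.95 and 2.99. These neighbours on mouse chromosome 13 (48631447 to 48633627, mm9) had gaps of 0.87, 0.90 and 0.78. let-7g was at -0.13, -0.31 and 0.62, let-7e at -1.29, -2.02 and -1.19, and miR-98 at -3.88, -4.74 and -3.05. In all of these, day 64 was the lowest day. let-7b, at 2.67, 3.14 and 3.18, and let-7c, at 0.59, 0.66 and 0.65, hardly left the earlier range, and let-7i, at 0.47, 0.46 and 0.19, lay below it. The probes of the family differ by few bases, so signal can be shared between members. The median difference was 0.84, and it was -0.01 without scaling, with a median over all miRNAs of -0.66.

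Among the single miRNAs above both earlier days, miR-148a, which is abundant in milk, was at -2.14, -2.75 and -0.19, a gap of 1.95 ± 0.011. Its relatives were not like it. miR-148b lay at the floor on both earlier days and at -4.52 on day 125, and miR-152 was at -3.08, -2.75 and -3.88. miR-378, made from an intron of the metabolic regulator PPARGC1B, was at -5.05, -5.02 and -3.20, a gap of 1.83 ± 0.033 next to the floor. miR-720, whose sequence is regarded as a fragment of a transfer RNA, was at 0.78, 0.56 and 2.54, a gap of 1.76 ± 0.0088. miR-15b, related to miR-16, was at -1.51, -2.35 and -0.33, a gap of 1.19 ± 0.018. miR-224 was at -5.05, at the floor and at -4.01, and miR-128 was at the floor on both earlier days and at -4.06, at least 2.07-fold higher. For these last 2 only part of the probes agreed, 3 of 4 for miR-224 and 1 of 2 for miR-128. With normexp background correction, miR-378, miR-18a, miR-128 and miR-224 were no longer above both days.

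The miR-29 family targets collagens and other matrix genes. All 3 members were lower by 2-fold or more at day 125, beside 11.9% of the miRNAs measured. miR-29b was at -0.09, 0.23 and -2.69, a gap of -2.60 ± 0.015, or 6.05-fold. miR-29a was at 1.31, 1.83 and -0.36, a gap of -1.67 ± 0.019, and miR-29c at -0.12, 0.34 and -1.75, a gap of -1.63 ± 0.015. In each, day 64 was the highest of the 3 days. The passenger arm miR-29c* went from -4.61 and -4.03 to the floor. By the probe coordinates kept, miR-29b, miR-29c* and miR-29c lie together on mouse chromosome 1 (196863287 to 196863815, mm9). Those of miR-29a and of miR-29b*, by name the opposite arm of miR-29b, lie on chromosome 6. A single chromosome was kept per miRNA, so the place of origin of the miR-29b signal was not examined. The median difference of the family was -1.93, and it lay between -2.78 and -0.64 under the 7 settings.

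All 6 measured miRNAs of the list for fibroblasts and smooth muscle were below both earlier days, beside 38.5% of the miRNAs measured. By 2-fold or more, 3 of them were lower, beside 11.9%, and the median difference was -1.23. miR-199a-5p, a product of mesenchymal cells, was at -0.59, -0.18 and -2.60, a gap of -2.01 ± 0.019. Its neighbours by probe coordinates, miR-199b, at 0.40, 0.00 and -0.55, and miR-214, at -2.46, -3.20 and -3.64, differed less. miR-199b*, by name the opposite arm of miR-199b, has its probe coordinates on mouse chromosome 2, whereas those kept for miR-199b are on chromosome 1. A single chromosome was kept per miRNA, so the place of origin of the miR-199b signal was not examined. miR-199b* was at -2.61, -2.81 and -4.19, a gap of -1.38 ± 0.037, with 1 of its 2 probes on this side of both days. miR-145 was at -3.50, -2.29 and at the floor, at least 3.05-fold lower, and miR-143, of the same smooth muscle cluster, was at -1.09, -0.79 and -1.93. The median of the list was -0.01 with the authors' value table, against 0.88 over all miRNAs, and between -2.08 and -0.74 under the other settings.

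miR-125a-3p had levels of -0.21, 0.38 and -4.92 and a gap of -4.71 ± 0.038, or 26.2-fold. Its day 125 signal, 31.0 intensity units, was next to the floor. With normexp the gap was -1.88, smaller than that of miR-29b at -2.00. The other arm of the same hairpin, miR-125a-5p, was at -3.43, -3.43 and -3.97, a gap of -0.54. The arms thus differed widely in size on the same array. Their neighbours on mouse chromosome 17 (17967164 to 17967840, mm9) were miR-99b, which reached the floor from -4.84 and -4.63, and let-7e, which was higher at day 125. miR-125b-5p, which shares its seed with miR-125a-5p, was at 1.66, 2.21 and 0.62, a gap of -1.04 ± 0.012. miR-99a was at 0.31, 0.41 and -0.13 and miR-100 at -2.06, -1.77 and -2.82. All 5 miRNAs of this list were below both earlier days, beside 38.5% of the miRNAs measured. Their median difference of -0.54 turned to 0.50 with the authors' value table.

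A further set stood high at day 64 and was lower at day 125 than at day 14 too. miR-494, from the imprinted Dlk1-Dio3 region, was at -0.80, 0.64 and -3.46, a gap of -2.66 ± 0.018. miR-1224, which is spliced out as a short intron, was at 0.07, 2.01 and -1.86, a gap of -1.93 ± 0.026, and its difference from day 64 was larger still. miR-140*, from a hairpin known from cartilage, was at -3.33, -2.04 and -4.67, a gap of -1.34 ± 0.038. miR-801, which matches a small nuclear RNA, was at -3.97, -1.97 and at the floor, at least 2.20-fold lower. miR-341 went from -4.00 and -2.35 to the floor, at least 2.16-fold lower, and miR-296-5p from -3.90 and -2.98 to the floor, at least 2.31-fold lower. miR-193b was at -3.38, -2.67 and -4.47, a gap of -1.09 ± 0.033. Under normexp background correction, miR-140*, miR-801, miR-341, miR-296-5p, miR-193b, miR-145, miR-199b* and miR-142-5p were no longer below both days.

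The distance between the earlier days ran against that to day 125. Of the 19 higher miRNAs, 16 were lower at day 64 than at day 14 (median -0.40), and of the 17 lower miRNAs, 16 were higher at day 64 (median 0.71). Over all miRNAs measured, 62 were lower and 73 higher at day 64, with a median of 0.03. A gap is taken from the nearer earlier day, so the earlier days entered the choice of these 36. Against day 14 alone, 19 miRNAs were higher and 19 lower by 2-fold or more. Against day 64 alone, 29 were higher and 32 lower.

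**Figure D3:**
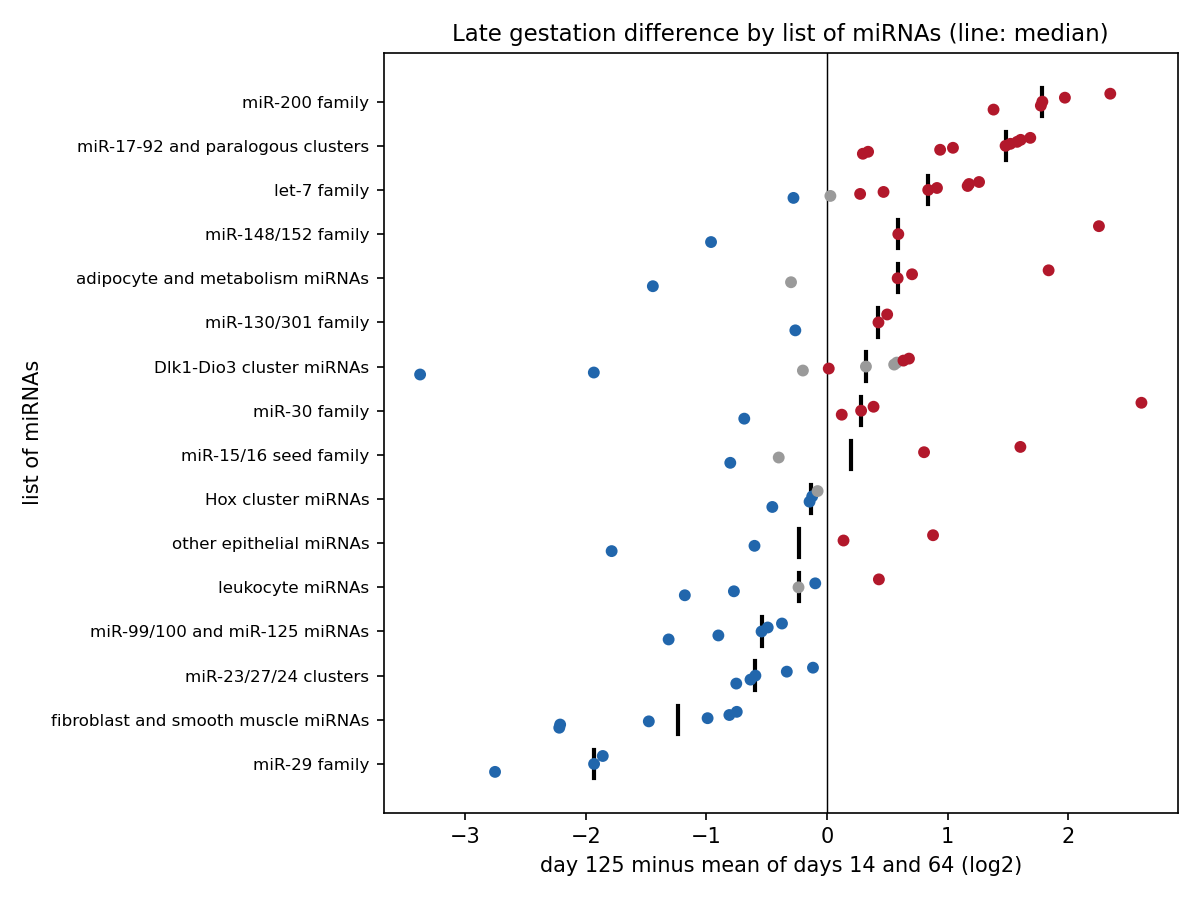
Log2 difference between sheep gestation day 125 and the mean of days 14 and 64 for each measured miRNA, in rows by list, with a vertical mark at the list's median. Red points lie above both earlier days, blue below both and grey between them. All points of the miR-200 family and the miR-17-92 list lie right of 0, and all points of the miR-29 family and the fibroblast list lie left of 0.

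The remaining lists moved less than these or in both directions. The miR-23/27/24 clusters had 5 of 5 members below both earlier days, beside 38.5% of the miRNAs measured, and none by 2-fold. Among them, miR-27a was at 0.74, 0.77 and 0.00 and miR-24 at 0.57, 0.69 and 0.04. The median of these clusters, -0.59, turned to 0.63 with the authors' value table. miR-26a, an inhibitor of cell growth, was at 1.74, 2.65 and 0.81. In the adipocyte and metabolism list miR-103 was at -1.24, -1.62 and -0.84, miR-107 at -2.04, -2.54 and -1.58, miR-378 was higher and miR-193b lower as given above, and the median of 0.59 turned to -0.26 without scaling. Of the Dlk1-Dio3 list, 18 of 53 miRNAs on the array were detected and 9 measured, with 3 above, 2 below and 4 between the earlier days. miR-21, an abundant miRNA of growing epithelium, was at 3.26, 2.59 and 2.74 and so lay inside the range.

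Markers of other cell types of the gland were read on the same arrays. In the leukocyte list, miR-142-3p was at -0.10, -0.63 and -0.60 and miR-142-5p, from the same hairpin, at -3.38, -3.08 and -4.41. miR-150 reached the floor from -4.77 and -3.90, miR-342-3p was at -4.83, -5.0 and -5.01, miR-223 was at the floor on the earlier days and at -4.68, and miR-155 was at the floor on all 3 days. Of 5 measured leukocyte miRNAs, 1 was above, 3 below and 1 between the earlier days. The endothelial miR-126-3p was at 0.55, 0.94 and 0.55, and the red cell miR-451 at -2.52, -2.45 and -2.28. Of the striated muscle list, miR-133b was the 1 member above the floor, and it was there only on the earlier days. The liver miRNA miR-122 and the neural miR-124 and miR-9 were not detected on these arrays.

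Summed over a list, where the brightest members weigh most, the scaled signal of the miR-200 family was 4.28 at day 14, 2.92 at day 64 and 11.4 at day 125. That of the fibroblast and smooth muscle list was 2.88, 2.92 and 1.27. The sums for leukocytes were 1.13, 0.893 and 0.806. The endothelial and red cell lists had 1 measured miRNA each, so these are single values. miR-126-3p was at 1.47, 1.92 and 1.46 and miR-451 at 0.174, 0.184 and 0.206. The list of other epithelial miRNAs summed to 0.615, 1.06 and 0.347, with values at the floor counted in. Its brightest member on each day was miR-205, and 2 of its 4 measured members, miR-96 and miR-183, were higher at day 125. At day 125 the miR-200 sum was thus higher, and the sums for other epithelial miRNAs and for fibroblasts lower, on the same array as all differences above. The part of cell composition in any single difference was not tested.

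Members near the edge of the rule differed very little from an earlier day. Just above the earlier range lay miR-301a, with a gap of 0.013, miR-410, with 0.014, and miR-192, with 0.024, and just below it lay miR-126-3p with -0.0037, miR-342-3p with -0.0093 and miR-186 with -0.030. Just inside its upper edge lay miR-26b, at -1.16, -1.37 and -1.17, let-7c, and miR-136, at -4.32, -4.99 and -4.33. Just inside its lower edge lay miR-146b, 0.0028 above a day 64 value at the floor. It was followed by miR-10b, at -2.26, -2.06 and -2.24, miR-361, at -1.92, -1.54 and -1.89, and miR-142-3p. miRNAs level with an earlier day at the floor are left aside here. At the 2-fold limit, miR-19b and miR-142-5p, with gaps of 1.03 and -1.03, were inside the set of 36, and miR-652, with 0.97, and miR-101a, with -0.94, were outside it.

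Neighbours in the mouse genome were grouped by probe coordinates in mm9, with a single chromosome kept per miRNA. A miRNA made from several places is thus grouped at only a single place. Of single measured miRNAs, 41.3% were above and 38.5% below both earlier days, so some groups would be one-sided without any link between neighbours. Of 26 groups of at least 2 measured miRNAs within 10 kb of each other, 10 had all members above both earlier days, 6 had all below, and 10 had members on both sides or between. Clustered miRNAs can come from a shared precursor, and arms of a hairpin always do, so these are not independent counts. The groups above included miR-17-92, both miR-200 clusters and miR-30a with miR-30a*. They also included miR-96 with miR-183, whose gaps were only 0.044 and 0.14. Those below included miR-29b with miR-29c and miR-140 with miR-140*. miR-30b and miR-30d split, as did let-7e and its 3 neighbours.

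**Figure D4:**
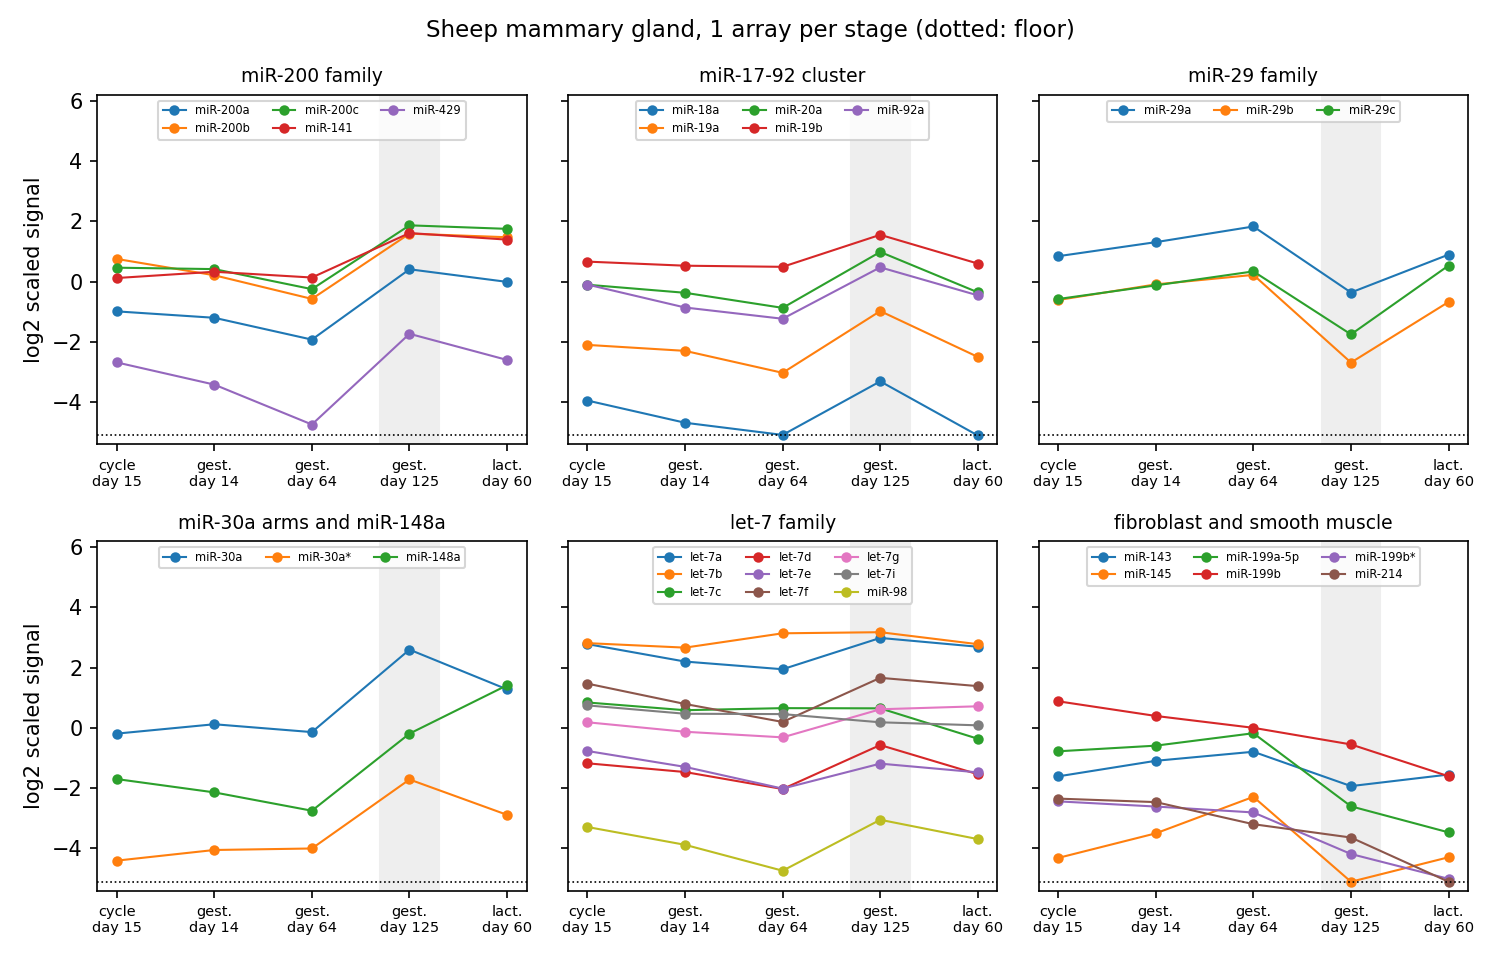
Log2 scaled signal (vertical axes) on the 5 sheep arrays in stage order (horizontal axes), 1 line per miRNA, with day 125 shaded and the floor dotted. At lactation day 60, 4 members of the miR-200 family stay near their day 125 levels and miR-429 lies between that level and day 14, whereas miR-17-92 and miR-29 lie nearer to their earlier levels there.

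The rule did not compare the cycle and lactation arrays, which entered it only through the shared scaling and floor. In the counts that follow, the side against both earlier gestation days was fixed by the rule, and only cycle and lactation were open. The same counts were not made over all measured miRNAs, so no background share stands beside them. Of the 19 higher miRNAs, 17 had their highest value of all 5 sheep arrays at day 125. Of the 17 lower ones, 10 had their lowest there, ties at the floor included. The exceptions among the higher were miR-148a and miR-720, at 1.42 and 3.16 in lactation. In the miR-200 family, lactation levels were -0.01 for miR-200a, 1.48 for miR-200b, 1.75 for miR-200c and 1.40 for miR-141, close to day 125. miR-429 was at -2.60 in lactation, below its day 125 level of -1.73 and near its cycle level of -2.68. In the miR-17-92 cluster they were -0.35 for miR-20a, -0.45 for miR-92a and 0.60 for miR-19b, near cycle levels of -0.10, -0.10 and 0.67. miR-30a was at 1.28 in lactation and -0.19 in cycle.

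Among the lower miRNAs, the miR-29 family was higher again in lactation, with miR-29a at 0.90, miR-29b at -0.67 and miR-29c at 0.54, near cycle levels of 0.85, -0.61 and -0.58 for all but miR-29c. miR-199a-5p was lower still in lactation, at -3.47, and so was miR-125b-5p, at -0.02. miR-205 stayed low at -2.12. miR-494, miR-1224 and miR-125a-3p were also low in cycle, at -3.79, -2.42 and -2.41, so for these the gestation days 14 and 64 were the high points.

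**Figure D5:**
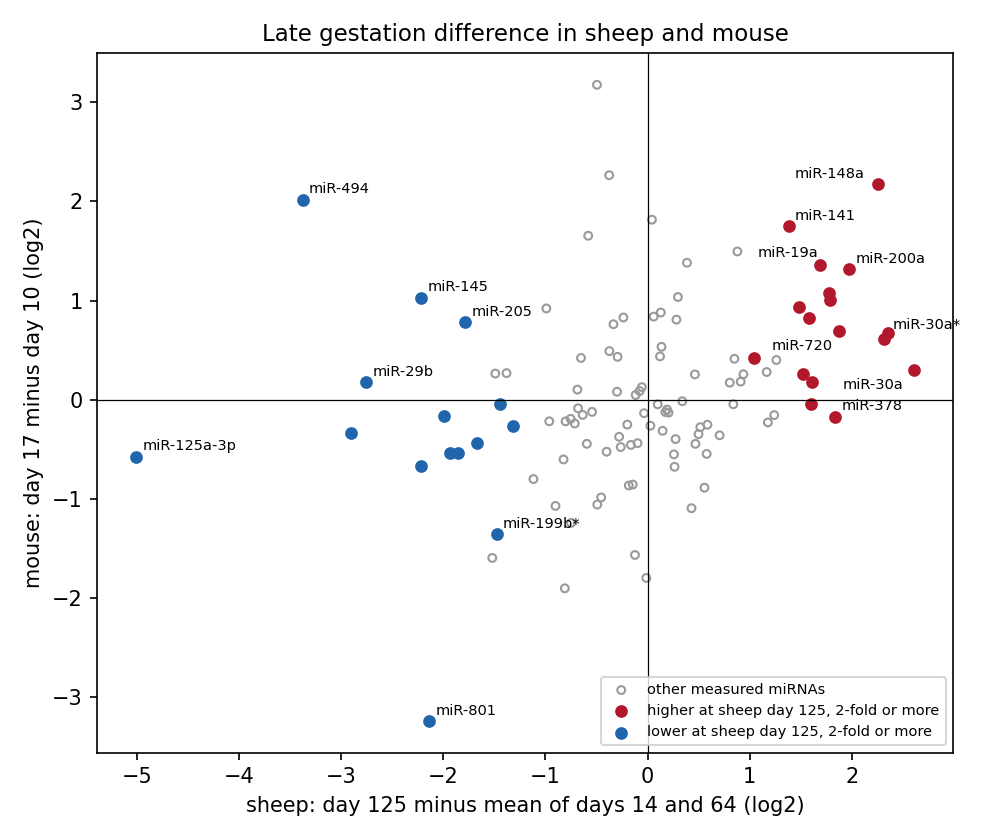
Log2 difference between mouse gestation days 17 and 10 (vertical axis) against the difference between sheep day 125 and the mean of days 14 and 64 (horizontal axis), 1 point per miRNA. Red and blue points are the miRNAs higher and lower by 2-fold or more in sheep. Most red points lie above 0, and 4 blue points do so too.

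Mouse late gestation, at day 17 against day 10, was set beside the sheep members. The rule compared no mouse values, although all 10 arrays entered the set of shared miRNAs used for scaling and the floor. The mouse day 10 array lay on another slide than the day 17 array, so slide and day cannot be told apart there. Over the 124 miRNAs measured in mouse, 46.8% were higher and 53.2% lower at day 17, and 14.5% were higher and 10.5% lower by 2-fold or more. Of the 19 higher in sheep, 17 were measured in mouse, and 15 of these were higher at day 17, 6 by 2-fold or more. Their median was 0.70, against -0.04 over all measured. These 17 included the 5 miR-200 members, 6 of the miR-17-92 list and both arms of miR-30a, so they are not independent counts. miR-148a was higher by 2.18, miR-141 by 1.75, miR-19a by 1.36, miR-200a by 1.32, miR-200b by 1.08 and miR-200c by 1.01. miR-30a differed by 0.30, and miR-378 and miR-15b by -0.17 and -0.04.

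Of the 17 lower in sheep, 15 were measured in mouse, and 11 were lower at day 17 (median -0.33), 2 of them by 2-fold or more. These 2 were miR-801, at -3.24, and miR-199b*, at -1.35. miR-494 was higher in mouse by 2.02, miR-145 by 1.03 from the floor, miR-205 by 0.78 and miR-29b by 0.18. miR-29a and miR-29c differed by -0.54 and -0.53. Over all members, 29 of 47 measured on the higher side and 31 of 45 on the lower side had the same direction in mouse.

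The mouse counts moved with the scaling together with their background. With the 75th percentile over all mouse miRNAs, 11 of 17 were higher in mouse, beside 28.9% of all measured, and 12 of 15 lower, beside 71.1%. With the authors' value table, 4 of 17 were higher, beside 11.7%, and 13 of 14 lower, beside 88.3%. Under every one of the scaling and background settings the share of the higher set that was higher in mouse lay above the share of all miRNAs. Without scaling, 18 of 18 were higher, beside 75.2%, and of the lower set 7 of 16 were lower and 9 higher, beside 24.8% lower, so its median turned to 0.12. The medians of the higher set were 0.24 and -0.58 with the percentile over all miRNAs and the authors' table, against -0.46 and -1.10 for all.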

How the data were processed

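Mammary RNA was labelled with Cy3 from 100 ng of total RNA, after a selection for RNA integrity, per the labels' protocols. The deposited scanner files hold intensity values on a linear scale, background-subtracted and detrended within each array, from Agilent Feature Extraction 10.5.1.1 per the file headers (9.5 per the submitters' processing notes). Detection and outlier flags come from the same files. The authors' deposited value table, also an intensity, equalled the software's total signal per miRNA times 1 factor per array, 0.275, 0.335 and 1.31 for days 14, 64 and 125, within 0.1% for at least 99.3% of miRNAs with a total signal above 50 on these arrays. Its column medians were 0.303, 0.26 and -3.94 (mouse days 10 and 17: -5.23 and 0.76), and the basis of the factors, that is its scale and centring, is unknown.

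Outlier spots were left out, spots were averaged per probe and probes per miRNA, and each array was scaled to its 75th percentile, taken over the 94 miRNAs with a detection flag on each of the 10 arrays. The floor was the highest of the arrays' 5th percentiles of detected miRNAs (0.029 of the scaled signal). No spot was saturated, and precision is limited by the number of arrays, 1 per day. Python 3.11.15 was used, with limma 3.58.1 in R 4.3.3 for the normexp alternative (offset 50). The steps were tested on simulated data. The members, lists and alternatives were chosen with earlier results of these data known. The miRNAs named were those with the 15 largest gaps on each side above the floor, the 6 largest at the floor, the members of the main lists, miR-21 and those at the edge of the range. miR-15b, miR-652, miR-101a, the other arms of hairpins and the examples from the other lists were named after their values were seen. Of the 226 miRNA names, 52 were found among the 106 miRNA genes of RefSeq's sheep annotation. miRNA sequences were not used here.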

Additional observations from a re-analysis of the deposited data

Results flagged for a closer look

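miR-494 and miR-145 ran in opposite directions by 2-fold or more in the 2 species. miR-494 had a gap of -2.66 at sheep day 125 and was 2.02 higher at mouse day 17 than at day 10, on the log2 scale. Its mouse levels were -0.80 in virgins, -3.05 and -1.03 on these days, and -1.45 and -1.58 in lactation. Day 10 was thus the lowest mouse array, and it lay on another slide than day 17. miR-145 had a gap of -1.61 in sheep, where day 125 was at the floor, and was 1.03 higher in mouse, where day 10 was at the floor. Each value rests on 1 array per day, and the difference between the species was not tested. Outside the main measurement, 1 of the 10 probe sets for a mouse gammaherpesvirus on the array was marked detected at sheep day 125, as 1 was on each of the 10 arrays.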

How the results depend on the processing

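No paired analysis was possible because each day has 1 array and no replicate or animal number links the arrays. Of 59 miRNAs higher and 55 lower at day 125, the counts became 25 and 129 without scaling, 36 and 25 with normexp, and 108 and 14 with the authors' value table. The lower count was 34 with the 75th percentile over all miRNAs and 83 with a floor 4 times lower. Of 19 higher and 17 lower by 2-fold, 33 and 8 were found with the percentile over all miRNAs, 2 and 64 without scaling, 11 and 8 with normexp, 56 and 3 with the authors' table, and 29 and 32 against day 64 alone. The lower count was 10 with the brightest probe and 35 with the lower floor. Of the miRNAs with a 2-fold gap, chosen anew under each setting, 26 had the same direction in mouse by the main setting, and 17, 15 and 9 with the percentile over all miRNAs, normexp and the authors' table. These counts come from the 2-fold sets given above, which differ in size and can hold miRNAs not measured in mouse, so they are not shares. In the same order, 46.8%, 28.9%, 40.7% and 11.7% of all miRNAs measured in mouse were higher at day 17. Normexp left 73 miRNAs above the floor, against 143. The share of higher miRNAs among those outside the range was 51.8%, and 72.1%, 16.2% and 88.5% with the percentile over all miRNAs, no scaling and the authors' table. Other counts stayed within 1.5 times. The causes were not tested.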
